A study of Mus musculus with 8 samples.

Results

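The genes examined here are 10 genes of iron transport, storage and control, chosen by symbol: *Trf*, *Tfrc*, *Tfr2*, *Fth1*, *Ftl1*, *Slc40a1*, *Hamp*, *Cp*, *Hfe* and *Bmp6*. All 10 were among the 23467 genes of the deposited table, and all 10 passed the filter of a mean of at least 1 RPKM that left 13421 genes for testing. RPKM divides the reads of a gene by its length and by the reads of the library, so levels can be compared between genes. The hepatocyte genes of the group were to be set against the ferritins by genotype and stage.

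RNA was sequenced from liver progenitor cells (hepatoblasts) of mouse embryos at E14.5, of mixed B6;129 background, grown on collagen (iHB), treated with oncostatin M at 12.5 ng/ml for 5 days to become hepatocyte-like (iHP), or kept in Matrigel for 14 days to become like biliary epithelial cells (iBEC). Control cells, labelled wild type, gave 1 library at each of the 3 stages. The L1L2_Alb cells, Lats1-/-;Lats2f/fl;Alb-cre in the labels, gave 1 iHB, 2 iHP and 2 iBEC libraries. They lack *Lats1* in every cell and lose *Lats2* only where the albumin promoter drives Cre. *Lats1* and *Lats2* encode the kinases of the Hippo pathway that restrain the coactivators YAP and TAZ. In bulk cultures such as these, fewer cells of a type and less RNA per cell cannot be told apart. Nothing in the labels says that the 2 libraries of a condition are from separate embryos or cultures. The p-values thus measure only the spread between these libraries, and that within a condition may be technical. In the fit with genotype and stage as terms, the spread also holds any difference of the genotype effect between stages.

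The libraries held 18436865 to 33229075 reads. Genotypes are given as labelled, because the RNA of the targeted genes was not lower over the libraries labelled L1L2_Alb, with *Lats1* below its control in 1 of 5 and *Lats2* in 0 of 5. *Lats1* was at 5.38 to 11.2 RPKM in control libraries and at 7.12 to 22.7 RPKM in the libraries labelled L1L2_Alb. *Lats2* was at 6.90 to 10.1 RPKM in control and at 10.9 to 27.6 RPKM in L1L2_Alb libraries, a log2 difference of 0.90 (SE, the standard error, 0.203, limma adjusted p = 0.0312). A value for a whole gene cannot set the deleted exons apart from the others. Hepatocyte markers were present in all 8 libraries, with a summed level of 13790 to 32410 RPKM over 10 genes. Mesenchymal markers summed to 740.1 to 4653 RPKM, and 0 of 9 were called by genotype (6 at an unadjusted p under 0.05). Biliary markers were present in all 8 as well, 2 higher and 2 lower by genotype of 6 tested, but *Cftr*, the chloride channel of bile duct cells, stayed under 1 RPKM in every library, iBECs included.

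Iron leaves the gut and recycling macrophages through the exporter ferroportin (*Slc40a1*), is oxidised by ferroxidases such as ceruloplasmin (*Cp*) and travels in plasma on transferrin (*Trf*). Cells take up loaded transferrin through transferrin receptor 1 (*Tfrc*) and keep surplus iron in ferritin, a shell of heavy (*Fth1*) and light (*Ftl1*) chains. Hepatocytes make most plasma transferrin and ceruloplasmin, and they make hepcidin (*Hamp*), the hormone that removes ferroportin from cell surfaces. They adjust hepcidin through BMP6, a ligand known mainly from liver sinusoidal endothelium, and through transferrin receptor 2 (*Tfr2*) and HFE, which report on loaded transferrin.

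Several of these messages are also controlled after transcription, by a hairpin called the iron-responsive element that iron regulatory proteins bind when iron is short. In a 5′ UTR the bound hairpin holds back translation, and in the 3′ UTR of *Tfrc* it protects the message from decay. The elements are shown because they divide the group into genes whose RNA level can follow this control and genes whose protein can change with no change in RNA. Capitals mark the loop, and coordinates are GRCm38 with GENCODE transcripts, since mm8, the build named for the deposited values, was not used for sequence.
Fth1, 5′ UTR, chr19:9982732-9982761, plus strand: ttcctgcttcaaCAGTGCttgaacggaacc
Ftl1, 5′ UTR, chr7:45459778-45459807, minus strand: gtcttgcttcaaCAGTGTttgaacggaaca
Slc40a1, 5′ UTR, chr1:45925464-45925493, minus strand: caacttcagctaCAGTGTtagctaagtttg
Tfrc, 3′ UTR, chr16:32631219-32631248, plus strand: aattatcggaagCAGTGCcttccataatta
Tfrc, 3′ UTR, chr16:32631598-32631627, plus strand: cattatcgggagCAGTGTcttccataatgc
Tfrc, 3′ UTR, chr16:32631663-32631692, plus strand: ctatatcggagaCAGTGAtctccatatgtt
Tfrc, 3′ UTR, chr16:32631710-32631739, plus strand: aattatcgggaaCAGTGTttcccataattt
The search asked for the loop letters CAGTGN above a stem of 5 pairs, then an unpaired C, and found it in 562 of 58797 protein-coding transcripts (0.956%). Of the 10 genes, 4 held it in a UTR and the other 6 did not in this form. The ferritins and *Slc40a1* carry it ahead of the coding sequence, and *Tfrc* carries 4 copies behind it.

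*Trf* was the most abundant RNA of the control iHP library, at 12825 RPKM, followed by the fibrinogen chain *Fgb* at 10898 RPKM. This rank was known when the genes were chosen. Comparisons that use the control iHP value of *Trf*, here and below, are thus not independent of that choice. *Trf* was lower in every library labelled L1L2_Alb than in the control of its stage. The iHB control held 6686 RPKM and the L1L2_Alb iHB library 2006 RPKM. In iHPs the L1L2_Alb libraries were at 2847 and 3178 RPKM. The iBEC control held 18663 RPKM of *Trf* and its L1L2_Alb counterparts 5061 and 7531 RPKM. The controls thus exceeded their L1L2_Alb counterparts by 2.48- to 4.51-fold, and within each stage the genotypes did not overlap. How many of all genes separate by genotype in such ways was not counted, here or for the genes and ratios below. The rank of *Trf* among all genes was 1 or 3 in the controls and between 5 and 27 in L1L2_Alb libraries. Its share of all reads was 1.56% in the iHB control, 2.99% in the iHP control and 4.35% in the iBEC control, against 0.468% to 1.76% in L1L2_Alb libraries. The Wilson 95% intervals of these shares were at most 0.014 percentage points wide and cover counting error only.

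*Tfr2* and *Cp* showed the same order of genotypes. *Tfr2* was at 47.9 RPKM in the iHB control versus 13.3 RPKM in L1L2_Alb iHB, and at 88.1 RPKM in the iHP control versus 27.2 and 14.9 RPKM. In iBECs the control held 109.7 RPKM and the L1L2_Alb libraries 38.8 and 48.1 RPKM. Each control exceeded its L1L2_Alb libraries, by 2.28- to 5.91-fold. *Cp* was at 223 RPKM in the iHB control and 16.5 RPKM in L1L2_Alb iHB, the widest gap among the 10 genes at 13.5-fold. It reached 573 RPKM in the iHP control versus 116 and 97.0 RPKM, and 733 RPKM in the iBEC control versus 146 and 309.6 RPKM. No L1L2_Alb library of a stage reached the control of that stage.

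The genotype effect was tested with limma on log2(RPKM + 1) across the 3 stages together, with stage as a term, because each stage had 1 control library. *Cp* fell by 2.53 on the log2 scale (SE 0.362, limma adjusted p = 0.00648). *Trf* fell by 1.81 (SE 0.272, limma adjusted p = 0.00782) and *Tfr2* fell by 1.72 (SE 0.243, limma adjusted p = 0.00621), each in 5 of 5 L1L2_Alb libraries. Of the 10 genes 3 were called, all 3 lower, where 9.57% of all genes tested were called (6.2% higher and 3.37% lower). With upper-quartile scaling that split over all genes was 586 higher and 607 lower, in place of 832 and 452. The median log2 fold change of the 10 genes was -0.44, against 0.06 over all genes tested. The calls for *Trf* and *Tfr2* rested in part on the control iHP library: without it the adjusted p was 0.102 for *Trf* and 0.0554 for *Tfr2*, and 1 of the 10 genes was called. The adjusted p of *Trf* was 0.0548 without the L1L2_Alb iHB library and 0.0935 without the filter on low values, where 2 of the 10 genes were called.

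Some other hepatocyte products were also lower by genotype. Of 10 hepatocyte markers, 5 were called lower in L1L2_Alb libraries and 0 higher, where 3.37% and 6.2% of all genes were. *Ttr*, which encodes the thyroxine carrier transthyretin, fell by 1.95 on the log2 scale (limma adjusted p = 0.00445), and *Alb* fell by 1.71 (adjusted p = 0.0337). Others did not follow: the apolipoprotein *Apoa1* differed by 0.65 (adjusted p = 0.35), with 8670 against 2451 RPKM in iHBs, and the fetal marker *Afp* by 0.07 (adjusted p = 0.914). The list's summed level in iHPs was 27770 RPKM in the control and 17040 and 16080 RPKM in the L1L2_Alb libraries. In iBECs it was 32410 RPKM in the control and 18880 and 18940 RPKM, whereas in iHBs it was 14160 against 13790 RPKM. These near-equal iHB sums hid opposite changes from control to L1L2_Alb. *Apoa1* rose from 2451 to 8670 RPKM and *Afp* from 3687 to 3959 RPKM. Every other marker of the list fell, among them *Alb* from 2485 to 524 RPKM and *Serpina1a* from 3109 to 120 RPKM. The part of hepatocyte content in the levels of *Trf*, *Tfr2* and *Cp* was not tested.

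**Figure D1:**
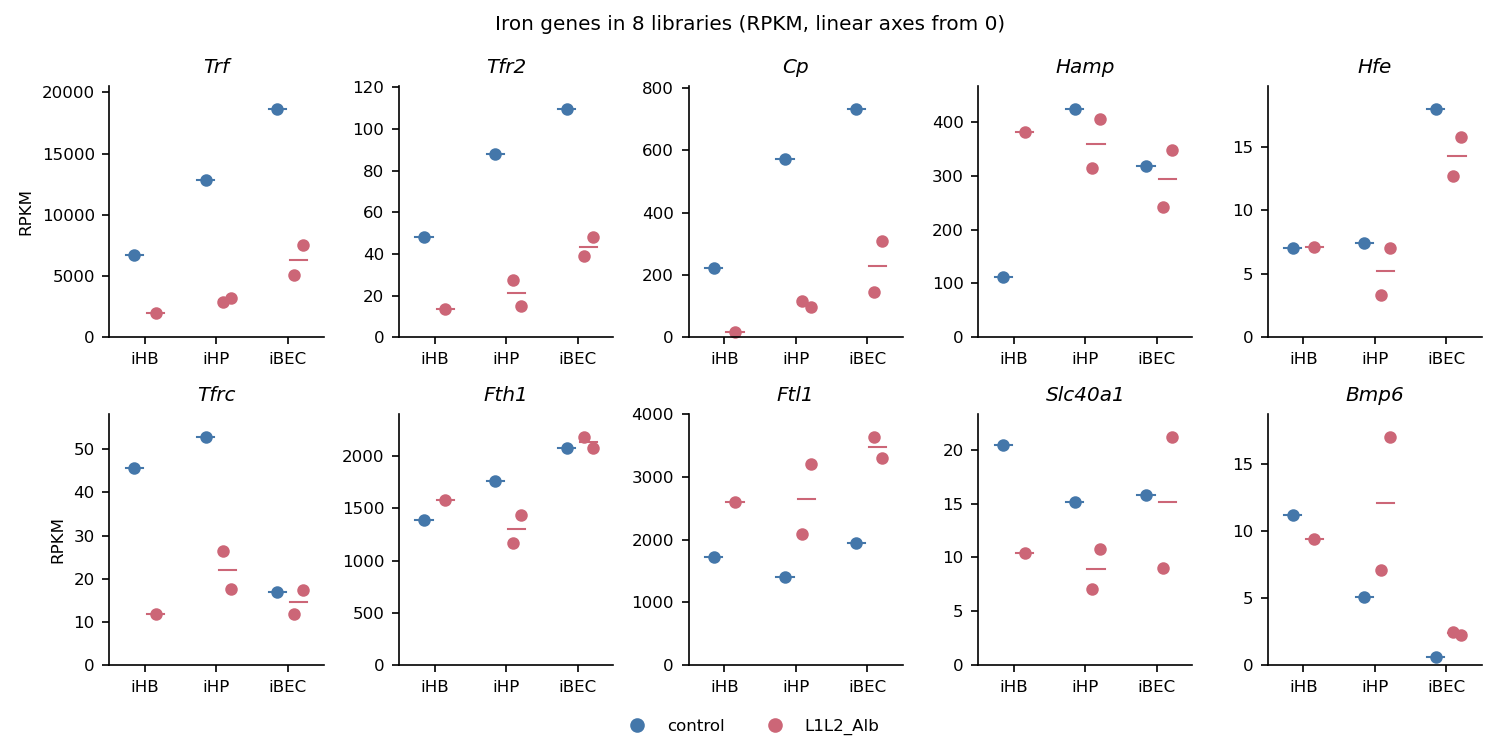
Level of each of the 10 genes in RPKM (linear vertical axes from 0, a different scale in each panel) at the 3 culture stages on the horizontal axis. Each point is 1 library, control in blue and L1L2_Alb in red, and the short bar is the mean of a condition. For *Trf*, *Tfr2* and *Cp* the control point lies above every L1L2_Alb point of its stage, and for *Ftl1* it lies below every one.

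The ferritins did not share this pattern. *Fth1* was at 1389 RPKM in the iHB control and 1578 RPKM in L1L2_Alb iHB. In iHPs the control held 1764 RPKM and the L1L2_Alb libraries 1171 and 1433 RPKM. In iBECs the control held 2080.1 RPKM and the L1L2_Alb libraries 2188 and 2079 RPKM. It was higher in 2 of 5 L1L2_Alb libraries and lower in 3, with a log2 fold change of -0.10 (SE 0.223, limma adjusted p = 0.828) whose sign turned without the control iHP library (0.10).

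*Ftl1* was higher in each L1L2_Alb library than in its control, by 1.48- to 2.28-fold. It was at 1724 RPKM in the iHB control versus 2607 RPKM, and at 1412 RPKM in the iHP control versus 2089 and 3213 RPKM. In iBECs the control held 1942 RPKM and the L1L2_Alb libraries 3646 and 3306 RPKM. All 5 L1L2_Alb libraries were above all 3 controls, and the share of all genes that separate so was not counted. The log2 fold change was 0.79 (SE 0.239) and missed the threshold over all genes (limma adjusted p = 0.0771). By genotype 3524 of the 13421 genes tested had an unadjusted p under 0.05 in limma. Quantile normalization brought it to an adjusted p of 0.0156.

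Ratios within a library do not depend on scaling between libraries. The ratio of *Ftl1* to *Fth1* RNA was 1.24 in the iHB control, 0.80 in the iHP control and 0.93 in the iBEC control. In L1L2_Alb libraries it was 1.65 in iHB, 1.78 and 2.24 in iHPs, and 1.67 and 1.59 in iBECs. Light chain RNA thus exceeded heavy chain RNA in 5 of 5 L1L2_Alb libraries and in 1 of 3 controls, and the genotypes did not overlap. The summed ferritin RNA per *Trf* RNA was 0.47, 0.25 and 0.22 in the controls of iHB, iHP and iBEC. In L1L2_Alb libraries this ratio was 2.09 in iHB, 1.15 and 1.46 in iHPs, and 1.15 and 0.72 in iBECs. Each control held more *Trf* than ferritin RNA, and 4 of 5 L1L2_Alb libraries held more ferritin than *Trf* RNA. Which RNA exceeded the other rests on the gene lengths behind RPKM. The length used for *Fth1* could not be checked, because its values gave no whole reads. Reads of *Fth1* and *Ftl1* may be shared with their near-identical pseudogene copies, and how the authors assigned such reads is not given in the sources used here.

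**Figure D2:**
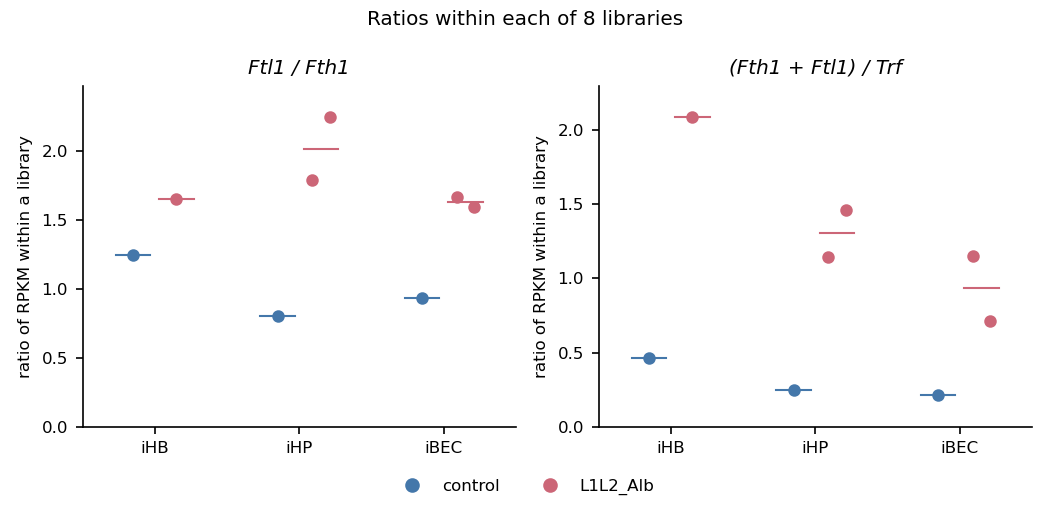
Ratio of *Ftl1* to *Fth1* RNA (left) and of the summed ferritins to *Trf* (right) in each of 8 libraries, from RPKM, on linear axes from 0, by stage on the horizontal axis. Points are libraries, control in blue and L1L2_Alb in red, and bars are means of a condition. In both panels every L1L2_Alb point lies above every control point, from 1.59 to 2.24 on the left and from 0.72 to 2.09 on the right.

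*Tfrc*, the receptor that dividing cells and red cell precursors use to import iron, was lower in 4 of 5 L1L2_Alb libraries. It was at 45.7 RPKM in the iHB control versus 11.8 RPKM, and at 53.0 RPKM in the iHP control versus 26.3 and 17.6 RPKM. In iBECs the control was at 16.8 RPKM and the L1L2_Alb libraries at 11.7 and 17.4 RPKM, so the genotypes overlapped there. The log2 fold change across stages was -1.05 (SE 0.309) and missed the threshold (limma adjusted p = 0.0716). It passed with upper-quartile scaling (0.0404), with quantile normalization (0.036) and without the control iBEC library (-1.52, adjusted p = 0.0164).

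Part of the markers of dividing and of red cells were lower in L1L2_Alb libraries. Of 10 cell cycle genes, 6 were called lower by genotype and 0 higher, where 3.37% and 6.2% of all genes were. *Top2a*, the topoisomerase of dividing cells, fell by 1.44 on the log2 scale (limma adjusted p = 0.0272), whereas *Rrm2*, a ribonucleotide reductase subunit, differed by 0.79 (adjusted p = 0.116). The summed level of the list was 387 RPKM in the iHB control versus 246 RPKM, and 306 RPKM in the iHP control versus 217 and 215 RPKM. In iBECs the L1L2_Alb libraries lay on both sides of the control, at 349.5 and 242 RPKM against 281.5 RPKM. The summed level of 10 erythroid markers was 256.5 RPKM in the iHB control and 170.3 RPKM in the iHP control. It was 47.6 RPKM in L1L2_Alb iHB, 12.3 and 32.0 RPKM in L1L2_Alb iHPs, and at most 7.49 RPKM in iBECs of both genotypes. Of the 4 erythroid markers tested, 2 were lower, the beta-globins *Hbb-b1* and *Hbb-b2*, and the embryonic globin *Hbb-bh1* was listed at 0 in every library. Their part in the level of *Tfrc* was not tested.

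The ratio of *Tfr2* to *Tfrc* RNA, the sensing against the importing receptor, was 1.05, 1.66 and 6.52 in the controls of iHB, iHP and iBEC. In L1L2_Alb libraries it was 1.13 in iHB, 1.03 and 0.84 in iHPs, and 3.31 and 2.77 in iBECs. In both genotypes the iBEC libraries held the highest ratios.

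*Slc40a1*, the exporter, was at 20.4 RPKM in the iHB control versus 10.4 RPKM in L1L2_Alb iHB. In iHPs the control held 15.1 RPKM and the L1L2_Alb libraries 7.08 and 10.8 RPKM. The L1L2_Alb iBEC libraries lay on both sides of their control, at 9.00 and 21.2 RPKM against 15.8 RPKM. The log2 fold change was -0.57 (SE 0.299, limma adjusted p = 0.275, lower in 4 of 5). Ferroportin is also a macrophage gene, and the summed level of 9 macrophage markers ranged from 1044 to 4694 RPKM, lowest in an L1L2_Alb iHP library and highest in an L1L2_Alb iBEC library. The libraries with the lowest and the highest *Slc40a1* were the same 2, but the others did not all keep this order. L1L2_Alb iBEC replicate 1 held 3668 RPKM of the markers and 9.00 RPKM of *Slc40a1*, against 1920 and 15.8 RPKM in the iBEC control. The iHB control held 3031 RPKM of the markers and 20.4 RPKM of *Slc40a1*, against 3166 and 10.4 RPKM in L1L2_Alb iHB. Of the 9 markers, 0 were called by genotype in limma (1 at an unadjusted p under 0.05), and their part in *Slc40a1* was not tested.

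*Hamp* was at 112 RPKM in the iHB control and at 242 to 425 RPKM in the other 7 libraries. The L1L2_Alb iHB library held 382 RPKM, 3.41-fold the control. In iHPs the control was at 425 RPKM and the L1L2_Alb libraries at 314 and 405 RPKM. In iBECs the control was at 319 RPKM and the L1L2_Alb libraries at 242 and 349 RPKM. The control iHB library was thus the sole low value, and genotypes differed by at most 1.35-fold at the later stages. The log2 fold change across stages was 0.34 (SE 0.36, limma adjusted p = 0.614) and turned to -0.19 without either iHB library.

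*Hamp* lies near *Hamp2*, a close copy on the same strand of chromosome 7, and reads can be hard to tell apart between them. *Hamp2* was at 24.6 RPKM in the iHB control and 60.5 RPKM in L1L2_Alb iHB, and at 46.4 to 88.9 RPKM in the other 6 libraries. It was lowest in the same library as *Hamp*. The promoters of both are shown because this pattern was shared. Each stretch has 100 bases of RefSeq (GRCm38.p6, minus strand). That of *Hamp* runs from 130 to 31 bases before the start and that of *Hamp2* from 127 to 28. Capitals mark GGCGCC, the letters known for the response of hepcidin to BMP signals, and TTCNNNGAA, those known for its response to STAT3.
Hamp, chr7:30944060-30944159: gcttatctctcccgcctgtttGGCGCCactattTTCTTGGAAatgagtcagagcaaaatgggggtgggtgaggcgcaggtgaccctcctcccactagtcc
Hamp2, chr7:30924209-30924308: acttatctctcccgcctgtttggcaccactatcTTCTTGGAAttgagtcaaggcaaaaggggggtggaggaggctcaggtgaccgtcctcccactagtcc
The stretches share 89 of 100 bases. Both hold TTCNNNGAA, whereas *Hamp2* differs within GGCGCC by G25A, counted from 1 at the 5′ end of the stretch with the *Hamp* base given before the position. Among 32851 RefSeq promoter windows searched on both strands, 9.59% held GGCGCC and 7.02% held TTCNNNGAA. Windows were found for 8 of the 10 genes, 13 windows in all, which leaves out *Trf* and *Slc40a1*. The percentages are of windows, whereas the members are counted as genes, so the 2 are not like for like. Only a stretch just before the start was searched. Of these 8, *Hamp* and *Tfrc* held GGCGCC, and *Hamp* alone held TTCNNNGAA. The letters GGAATG, known as the site of TEAD factors that YAP works with, were in 12.6% of windows and in those of *Cp* and *Tfr2*. CAAAGTCC, a form of the HNF4 site, was in 1.2% of windows and in none of the 8. None of the matches in these windows overlapped a match of another motif. A match is a description of the letters and not a sign of binding.

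*Bmp6*, the hepcidin inducer, was at 11.2 RPKM in the iHB control and 9.36 RPKM in L1L2_Alb iHB. In iHPs the control held 5.04 RPKM and the L1L2_Alb libraries 7.09 and 17.02 RPKM. The iBEC control held 0.612 RPKM, from 49 reads, and the L1L2_Alb iBECs 2.45 and 2.26 RPKM. It was higher in 4 of 5 L1L2_Alb libraries, with a log2 fold change of 0.68 (SE 0.335, limma adjusted p = 0.244). Of the endothelial markers *Cdh5*, *Tek* and *Stab2* were under 1 RPKM in every library, and the 7 endothelial markers together summed to 4.70 to 36.5 RPKM.

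*Hfe*, an MHC-like protein that binds transferrin receptor 1, was at 7.04 RPKM in the iHB control and 7.12 RPKM in L1L2_Alb iHB. In iHPs the control held 7.43 RPKM and the L1L2_Alb libraries 3.34 and 7.03 RPKM. In iBECs it stood at 18.001 RPKM in the control versus 12.7 and 15.8 RPKM. The control held the highest value in iHPs and in iBECs. The log2 fold change was -0.30 (SE 0.246, limma adjusted p = 0.495, lower in 4 of 5).

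**Figure D3:**
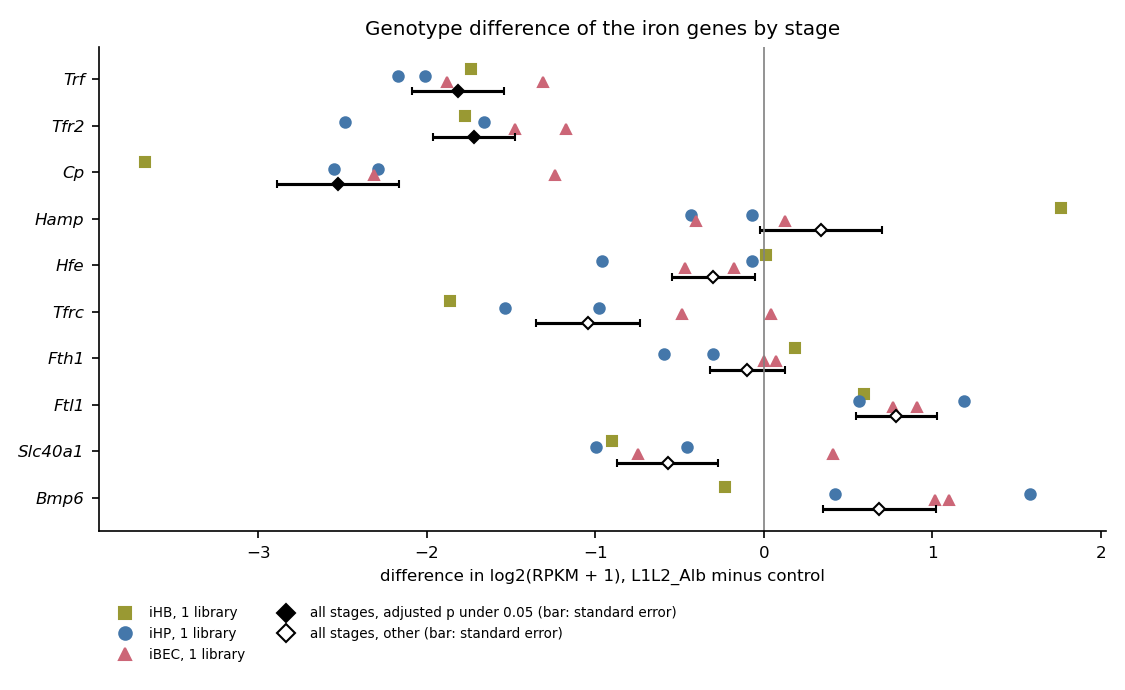
Difference of L1L2_Alb minus control in log2(RPKM + 1) on the horizontal axis, for each of the 10 genes. Coloured points are single L1L2_Alb libraries against the 1 control of their stage, and diamonds are the fit over all stages with its SE, filled where the adjusted p is under 0.05. *Cp*, *Trf* and *Tfr2* carry filled diamonds, at -2.53, -1.81 and -1.72.

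A moderated F test from limma on the 6 conditions asked whether the genotype effect depended on stage. Of the 10 genes 0 were called, as were 0% of all genes tested. At an unadjusted p under 0.05 there were 1 of the 10 and 733 of 13421 genes. With 2 residual degrees of freedom the smallest adjusted p over all genes was 0.122, so differences between stages may have been missed. The 1 gene was *Hamp* (adjusted p = 0.814), whose difference was 1.76 in iHBs against a mean of -0.25 in iHPs.

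Stages were compared with genotype as a term in the same fit. In iBECs against iHBs, *Cp* rose by 2.79 on the log2 scale (SE 0.451, limma adjusted p = 0.0111), *Trf* rose by 1.59 (SE 0.339, adjusted p = 0.0331) and *Tfr2* rose by 1.47 (SE 0.303, adjusted p = 0.0297). *Bmp6* fell by 2.21 (SE 0.418, adjusted p = 0.0214). The 10 genes therefore gave 4 calls, 3 higher and 1 lower, where 5.72% of all genes were called (2.94% higher and 2.78% lower, or 395 and 373 genes, which upper-quartile scaling turned into 490 and 184). The median change over all genes was -0.25 as deposited and -0.02 after upper-quartile scaling, and the median of the 10 genes was 0.50.

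These stage calls depended on single libraries. *Cp* lost its call without the L1L2_Alb iHB library (limma adjusted p = 0.211). *Trf* lost its call without control iHB (0.224), L1L2_Alb iHB (0.334), control iHP (0.068), control iBEC (0.0731) and L1L2_Alb iBEC replicate 1 (0.0788) or 2 (0.0981), and also with quantile normalization (log2 fold change 0.85, adjusted p = 0.204). *Tfr2* lost its call without control iHB (0.19), L1L2_Alb iHB (0.323) and L1L2_Alb iBEC replicate 1 (0.0661) or 2 (0.0751). *Bmp6* lost its call without control iHB (0.2), L1L2_Alb iHB (0.0701), control iBEC (0.0676) and L1L2_Alb iBEC replicate 2 (0.0556). Without the filter on low values *Cp* alone of the 10 was called. The direction of these 4 genes held in every alternative run.

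The biliary marker *Spp1* and the hepatocyte product *Alb* were both abundant in iBECs. The summed level of 7 biliary markers was 2331 to 3770 RPKM in iHBs and iHPs, 23440 RPKM in the iBEC control, and 6637 and 11720 RPKM in L1L2_Alb iBECs, mostly from *Spp1*. *Alb* was at 6162 RPKM in the iBEC control and at 2485 RPKM in the iHB control. *Trf* thus reached its highest level, in both genotypes, in libraries labelled as biliary cells, in which *Alb* was also at its highest for each genotype. The cell make-up behind these levels was not tested.

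In iBECs against iHPs, *Hfe* rose by 1.30 on the log2 scale (SE 0.272, limma adjusted p = 0.0408) and *Bmp6* fell by 1.87 (SE 0.37, adjusted p = 0.0341). These were 2 calls of 10, 1 higher and 1 lower, where 4.12% of all genes were called (2.45% higher and 1.67% lower, or 329 and 224 genes, which upper-quartile scaling turned into 453 and 195). *Hfe* in iBECs, at 12.7 to 18.001 RPKM, lay above all iHB and iHP libraries, and *Bmp6* in iBECs lay below all of them. *Hfe* kept its call without L1L2_Alb iHP replicate 2 but lost it without any other library, with an adjusted p of 0.0639 to 0.138. *Bmp6* lost its call without control iHP (0.0571), L1L2_Alb iHP replicate 1 (0.0666), control iBEC (0.0613) and L1L2_Alb iBEC replicate 1 (0.0837) or 2 (0.0998). *Trf* differed by 0.87 (adjusted p = 0.143) and *Tfr2* by 0.81 (adjusted p = 0.13).

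In iHPs against iHBs 0 of the 10 genes were called, as were 0% of all genes by limma, with 1158 of 13421 at an unadjusted p under 0.05. *Cp* was the 1 member with such a p, at a log2 fold change of 2.00 (adjusted p = 0.372). In controls alone *Trf* was at 1.92-fold and *Hamp* at 3.79-fold its iHB level in iHP, each from 1 library. The ferritins gave log2 fold changes of -0.03 for *Fth1* and -0.13 for *Ftl1*, and both turned above 0 with upper-quartile scaling.

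Within the L1L2_Alb libraries, the only conditions with 2 libraries each, iBECs were set against iHPs. Of the 10 genes 0 were called, where 3.67% of all genes were called, and 4 of the 10 had an unadjusted p under 0.05. *Bmp6* differed by -1.85 (SE 0.42, limma adjusted p = 0.0633) and *Hfe* by 1.36 (SE 0.375, adjusted p = 0.104). *Cp* differed by 1.00 (adjusted p = 0.254).

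Beyond the 10 genes, 8 lists of iron genes with 82 entries were examined, of which 79 were in the table and 75 were tested. By genotype 5 of the 75 were higher, where 6.2% of all genes were, and 9 were lower, where 3.37% were. Upper-quartile scaling gave 3 higher and 9 lower, and quantile normalization 3 and 6. Without the filter on low values this count was 2 higher and 3 lower. It was 1 and 1 without the control iHP library, 1 and 3 without either iHB library, and 3 and 5 without the control iBEC library. Without L1L2_Alb iBEC replicate 1 or 2 it was 3 or 2 higher and 6 lower, and without L1L2_Alb iHP replicate 1 it was 5 and 4. In iBECs against iHBs 6 were higher and 3 lower, where 5.72% of all genes were called. Without the control iHB library 4 were higher and 0 lower, and without the L1L2_Alb iHB library 3 and 0, while upper-quartile scaling gave 9 and 0 and quantile normalization 9 and 1. In iBECs against iHPs 5 were higher and 2 lower, where 4.12% of all genes were called, and these became 3 and 1 without L1L2_Alb iBEC replicate 2, 8 and 3 without L1L2_Alb iHP replicate 2, and 1 and 0 with the mean of a pair. In iHPs against iHBs 0 were called by limma (12 at an unadjusted p under 0.05). In L1L2_Alb iBECs against iHPs 4 were higher and 0 lower, where 3.67% of all genes were called. All 4 of these calls were lost without L1L2_Alb iHP replicate 1, without replicate 2 and without the filter, and L1L2_Alb iBEC replicate 1 left out gave 2 higher. With the replicate block 9 were higher and 2 lower. The genes called higher in iBECs, against iHBs or iHPs, include *Hfe2* and *Scara5*, which met the filter on low values only through their iBEC libraries.

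In iron uptake and membrane transport, 1 of 13 genes tested rose by genotype and 4 fell, where 6.2% of all genes rose and 3.37% fell. *Slc39a8*, the zinc and iron importer ZIP8, was at 10.1 RPKM in the iHB control versus 169.9 RPKM in L1L2_Alb iHB. The iHP control also held 10.1 RPKM, versus 183 and 255 RPKM, and the iBEC control 2.78 RPKM, versus 55.0 and 92.1 RPKM. All 5 L1L2_Alb libraries were above all 3 controls, with a log2 fold change of 4.18 (SE 0.22, limma adjusted p = 0.000268), called in 15 of 15 alternatives. Its relative *Slc39a14* (ZIP14), the main importer of free plasma iron into hepatocytes, fell by 1.19 (adjusted p = 0.00833, called in 12 of 15). It was at 27.0 RPKM in the iHB control versus 11.7 RPKM, at 54.5 RPKM in the iHP control versus 29.1 and 18.8 RPKM, and at 130.5 RPKM in the iBEC control versus 56.0 and 54.0 RPKM. The ferrireductase *Steap4* fell by 2.79 (adjusted p = 0.0412), called in 6 of 15 alternatives. The 2 importers of this family thus moved in opposite directions, and each did so in 5 of 5 L1L2_Alb libraries.

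Of 10 genes for scavenging of haem and haemoglobin, 2 fell by genotype, where 3.37% of all genes did. *Hpx*, the plasma carrier of haem, was at 499 RPKM in the iHB control versus 37.9 RPKM, and at 3390.3 RPKM in the iHP control versus 535 and 508 RPKM. The iBEC control held 22015 RPKM, more than its *Trf*, and the L1L2_Alb iBECs 1974 and 5041 RPKM. It fell by 3.01 on the log2 scale (SE 0.34, limma adjusted p = 0.00283), called in 15 of 15 alternatives. *Hp*, which binds free haemoglobin, fell by 2.57 (adjusted p = 0.00882, called in 14 of 15), with 6160.4 RPKM in the iHP control versus 576 and 392 RPKM. The haem oxygenase *Hmox1* was higher in 4 of 5 L1L2_Alb libraries without passing the test (0.90, adjusted p = 0.193). Between iHBs and iBECs, *Hpx* rose by 5.94 (adjusted p = 0.000612) and *Hp* by 3.68 (adjusted p = 0.00549).

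In the regulation of hepcidin, 1 of 15 genes tested rose by genotype and 2 fell, against the same 6.2% and 3.37% of all genes, so the rise of 1 gene was near the background. *Tmprss6*, the liver protease that lowers hepcidin by cleaving hemojuvelin, fell by 1.54 (SE 0.339, limma adjusted p = 0.0292, called in 7 of 15 alternatives). It was at 28.2 RPKM in the iHB control versus 4.40 RPKM, at 49.4 RPKM in the iHP control versus 11.9 and 11.7 RPKM, and at 33.9 RPKM in the iBEC control versus 28.0 and 22.1 RPKM. *Hfe2*, which encodes hemojuvelin, the BMP co-receptor, was under 1 RPKM in iHBs and iHPs of both genotypes. It reached 13.6 RPKM in the iBEC control and 4.19 and 5.19 RPKM in L1L2_Alb iBECs. It rose by 2.92 between iHBs and iBECs (adjusted p = 0.00182), called in 14 of 14 alternatives, and fell by 0.93 by genotype (adjusted p = 0.0473), called in 3 of 14. *Hfe2* met the filter of a mean of at least 1 RPKM only through its iBEC libraries. Its calls as higher in iBECs are thus not independent of the filter. The filter at a mean of 5 RPKM left it out. The BMP ligand *Bmp4* rose by 1.15 (adjusted p = 0.0257, called in 9 of 15).

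Of 6 target genes of BMP and SMAD signals, 1 rose by genotype, where 6.2% of all genes did. *Smad7*, a feedback inhibitor, rose by 1.09 (limma adjusted p = 0.0379, called in 5 of 15 alternatives). *Id1* differed by 0.15 (adjusted p = 0.606) and *Smad6* by 0.47 (adjusted p = 0.19). Among 7 genes of iron regulatory proteins and ferritin turnover, *Fbxl5*, whose product removes iron regulatory protein 2 when iron is plentiful, rose by 0.81 (adjusted p = 0.0356, called in 5 of 15). The regulatory proteins themselves, *Aco1* and *Ireb2*, differed by -0.29 (adjusted p = 0.406) and -0.22 (adjusted p = 0.54). Of 14 genes of iron-sulphur cluster assembly, *Fdx1*, a ferredoxin, rose by 0.87 (adjusted p = 0.0251), called in 10 of 15. Of 8 genes of haem synthesis 0 were called by limma (1 at an unadjusted p under 0.05). Of the other iron-binding secreted proteins *Lcn2*, which binds iron-loaded siderophores, fell by 1.87 (adjusted p = 0.0349, called in 8 of 15).

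Of the 13 uptake genes tested, 3 rose and 1 fell in iBECs against iHBs, where 2.94% and 2.78% of all genes did. *Scara5*, known as a receptor for ferritin, was under 1 RPKM in both iHB libraries and at 27.6 RPKM in the iBEC control and 8.60 and 11.2 RPKM in L1L2_Alb iBECs. It rose by 4.03 between iHBs and iBECs (SE 0.418, limma adjusted p = 0.0019, called in 15 of 15 alternatives). *Scara5* also met the filter of a mean of at least 1 RPKM only through its iBEC libraries, so this call is not independent of the filter. *Mfi2*, or melanotransferrin, rose by 2.52 (adjusted p = 0.00451) and *Slc39a14* by 2.18 (adjusted p = 0.0019), while *Slc39a8* fell by 1.39 (adjusted p = 0.0256, called in 9 of 15). By genotype *Scara5* fell by 1.29 (adjusted p = 0.0488, called in 5 of 15) and *Mfi2* by 1.22 (adjusted p = 0.0257, called in 9 of 14).

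**Figure D4:**
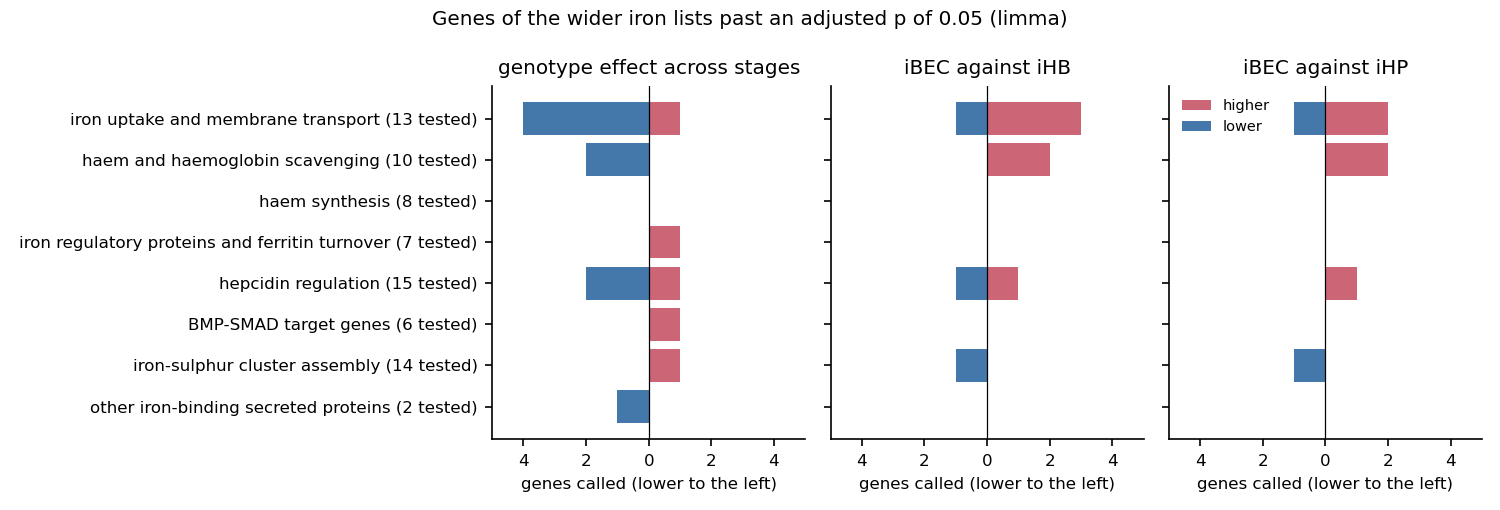
Number of genes past an adjusted p of 0.05 (limma) in each of 8 lists of iron genes, higher to the right in red and lower to the left in blue, on a linear horizontal axis, for the genotype effect, iBECs against iHBs and iBECs against iHPs. By genotype the uptake list holds 1 higher and 4 lower of 13 tested, and the haem synthesis list holds 0 of 8 in each panel.

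The genes whose levels most resembled those of *Trf* over the 8 libraries were *Itih1* (Pearson r of log2(RPKM + 1) 0.992), *Hnf4a* (0.988), *Cpn2* (0.982), *Acnat1* (0.98) and *F13b* (0.98). *Hnf4a* is a transcription factor of hepatocytes, and *Itih1*, *Cpn2* and *F13b* encode plasma proteins. For *Fth1* they included *Folr2* (0.955), *LOC100504703* (0.931), *Npl* (0.931) and *Rdh5* (0.923). *Folr2* is a folate receptor of macrophages, and the part of macrophages in the level of *Fth1* was not tested. These values describe 8 libraries that share stages and genotypes. They are the highest among all genes tested, and the share of genes with correlations of this size was not counted.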

How the data were processed

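The authors made TruSeq libraries and deposited 1 table of RPKM values per gene and library. The unit was inferred from the values: short genes of known length changed in whole reads, which also gave the depth of each library. Bowtie 0.12.2 and the build mm8 are named in the submitters' processing notes, and the counting method and annotation are not given in the sources used here. A wrong gene length or an unscaled library would shift all values of a gene or library alike. Of 23471 entries, 4 with repeated symbols were left out.

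For 8 of the 10 genes the values gave whole reads (within 0.02 reads), which served as depth only; those of *Fth1* and *Cp* did not. The fewest were 49 reads of *Bmp6* in control iBEC. For the other 7 of those 8 genes every library held at least 106 reads.

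Genes that averaged 1 RPKM or more were fitted on log2(RPKM + 1) with limma 3.58.1 in R 4.3.3 (eBayes with trend). Fold changes on this scale understate changes of low genes. Genotype and stage were terms of 1 additive fit. The tests of the difference between stages, and of L1L2_Alb iBECs against iHPs, used a fit of the 6 conditions. Tests were two-sided, p was adjusted over all genes tested by the Benjamini-Hochberg method, and the threshold was 0.05. The fit was tested on simulated data. Alternatives were a pseudocount of 0.1, upper-quartile scaling, quantile normalization, no filter, a filter at a mean of 5 RPKM, eBayes with no trend, each library left out, and the mean of the libraries of a pair. A library left alone in its condition was assumed to vary like the others.

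The 10 genes and the lists of iron and marker genes were chosen with earlier results of these data known. Named from each list were at most 2 genes with the largest changes past the threshold in each comparison, with 9 regulators (*Hmox1*, *Hfe2*, *Tmprss6*, *Aco1*, *Ireb2*, *Id1*, *Smad6*, *Smad7* and *Slc39a14*). *Hamp2* and the markers were added. Likeness covers the 5 highest correlations, of which 1 for *Fth1* is not reported here. Tables and figures were made in Python 3.11.15 (numpy 2.4.6, pandas 2.3.3, matplotlib 3.10.9).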

Additional observations from a re-analysis of the deposited data

Results flagged for a closer look

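The genotype difference had opposite signs at different stages for 4 of the 10 genes, in every library of the stages compared. For *Hamp* it was 1.76 on the log2 scale in iHBs and -0.25 in iHPs (adjusted p = 0.814 from the moderated F test of limma over the stages). For *Bmp6* the iHB difference was -0.23, with 1.00 for iHPs and 1.06 for iBECs (adjusted p = 1.0 from limma). For *Fth1* it was 0.18 in iHBs and -0.45 in iHPs (adjusted p = 1.0 from limma). For *Hfe* the iHB difference was 0.02, with -0.51 for iHPs and -0.32 for iBECs (adjusted p = 1.0 from limma). None of the 4 passed the threshold, and each stage had 1 control library. With 1 iHB library per genotype, a difference as small as the 0.02 of *Hfe* was enough for a sign. The share of all genes with such opposite signs was not counted, so the 4 of 10 cannot be set against it.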

How the results depend on the processing

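The adjusted p missed or met the threshold as in the values given above, with the same direction, in 536 of 600 results of single genes under the alternatives. In 39 a call was lost, in 5 a call was gained and in 20 the sign turned. Most of the 600 results were of genes with no call above, which had none to lose. Calls could be lost only by 3 genes by genotype, 4 for iBECs against iHBs and 2 for iBECs against iHPs. Each was run under 15 alternatives, and these comparisons lost 4, 19 and 16 calls. Of the 10 genes, the count called by genotype was 5 with quantile normalization, 2 without the filter and 1 to 4 when a library was left out. For iBECs against iHBs it was 1 without the filter and 0 to 5 when a library was left out. For iBECs against iHPs it was 0 without the filter, 0 with the mean of a pair, and 0 to 2 when a library was left out. The cause was not tested.

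Over all genes, the count called by genotype was 1284, and 205 to 1695 under the alternatives, with 686 without the filter. For iBECs against iHBs it was 768 (99 to 1739, 492 without the filter), and for iBECs against iHPs 553 (56 to 987, 211 without the filter). For iHPs against iHBs it was 0 (0 to 55). For L1L2_Alb iBECs against iHPs it was 492 (0 to 911, 0 without the filter). By genotype 832 were higher and 452 lower, against 586 and 607 with upper-quartile scaling and 687 and 609 with quantile normalization. For iBECs against iHBs 395 were higher and 373 lower, against 490 and 184 with upper-quartile scaling. For iBECs against iHPs 329 were higher and 224 lower, against 453 and 195.

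With the number in the titles as a replicate block, L1L2_Alb iBECs against iHPs gave 1 call among the 10 genes, *Bmp6* (adjusted p = 0.022 from limma), and 911 over all genes. Deviations of same-numbered libraries correlated at -0.02 over genes, so the numbers were not taken to pair the libraries.

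All turned signs were of values that missed the threshold. By genotype, leaving out libraries moved the log2 fold change of *Fth1* from -0.20 to 0.10 and of *Hamp* from -0.19 to 0.68. For iHPs against iHBs the ranges were -0.24 to 0.18 for *Fth1*, -0.30 to 0.0068 for *Ftl1*, -0.14 to 0.99 for *Tfrc*, -0.079 to 1.88 for *Hamp*, -0.43 to 0.026 for *Hfe* and -1.03 to 0.23 for *Bmp6*. *Fth1* was at 0.15 with upper-quartile scaling and 0.034 with the mean of a pair, and *Ftl1* at 0.042 with upper-quartile scaling. For iBECs against iHBs the ranges were -1.04 to 0.079 for *Tfrc*, -0.28 to 0.33 for *Slc40a1* and -0.41 to 1.54 for *Hamp*, and *Ftl1* was at -0.16 with quantile normalization.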
